A study of Mus musculus with 2 samples.

Results

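Cytosolic ribosomal protein (RP) genes encode the proteins of the large (60S-type) and small (40S-type) subunits of the ribosome that translates nuclear messages. They were taken as every gene symbol that begins with Rpl or Rps followed by a digit, together with Rplp0, Rplp1, Rplp2 and Rpsa. Symbols marked as pseudogenes and those of the ribosomal S6 kinases were left out. The rule gave 86 of the 32285 genes counted: 52 named for the large subunit, 33 named for the small subunit, and Rps19bp1, whose product binds RPS19 and is not part of the ribosome. Of these, 7 are paralogues of a ribosomal protein, and 78 are neither paralogues nor Rps19bp1, although these still include Rps27rt, a retrotransposed copy of Rps27. UMIs were found for 85 of the 86.

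The data came from 2 single-cell libraries of mouse bone marrow, 1 from control (Ctrl) and 1 from Map4k4-cKO (cKO) mice of 13 to 14 weeks. Map4k4 encodes a serine/threonine kinase, and the study asked what its loss does to neutrophil differentiation. The study writes the cKO genotype as Mx1-Cre Map4k4 f/f, with poly I:C injections deleting the floxed alleles weeks before harvest, and the littermate Ctrl genotype as Mx1-Cre Map4k4 -/-. Read literally, that notation would be a deletion in the controls, but the study elsewhere calls the control cells of these data wildtype. The notation is not spelled out in the sources used here, and what Ctrl mice carry bears on every cKO over Ctrl ratio. In both libraries, c-Kit+ progenitors enriched on magnetic beads were mixed 2:3 with marrow cleared of red cells. Mx1-Cre is driven by an interferon-inducible promoter that is active in many tissues, and whether Ctrl mice were injected and how many mice went into each library are not given in the sources used here. With 1 library per condition there was no replicate, so no test could be made. Every interval below is an exact 95% interval for counting error only, and genotype, mouse and library preparation cannot be told apart.

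Ribosomal proteins are made in near equal numbers, because each ribosome holds about one of each, and their messages are among the most abundant of a growing cell. Many of these messages begin with a terminal oligopyrimidine (TOP) tract, a run of C and U at the very start of the transcript through which growth signals set their translation. During granulopoiesis the dividing progenitors make granule proteins and ribosomes in bulk. Maturing neutrophils leave the cell cycle, condense their nucleus and carry far less RNA. Mutations in single RP genes cause Diamond-Blackfan anaemia, in which red cell precursors fail.

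The letters around the transcript start are shown for members whose values the results turn on, since a TOP tract would lie there. Each window below runs from 15 bases before to 15 bases from the RefSeq start, 5′ to 3′ on the gene's strand of GRCm38.p6, and capitals mark its longest unbroken run of C or T. Rps12 and Rps24 were among the members with most UMIs, Rps9 and Rps27 took a larger and Rps2 a smaller part of the RP UMIs in mature neutrophils, and Rpl3l was a scarce paralogue with a high level there. Rpl10, Rplp0 and Rpl28 had the highest and Rps26 and Rpl38 the lowest cKO over Ctrl ratios.
Rps12 (chr10:23787195-23787224, minus strand): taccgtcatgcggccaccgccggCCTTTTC
Rps24 (chr14:24490663-24490692, plus strand): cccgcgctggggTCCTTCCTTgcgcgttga
Rps9 (chr7:3704026-3704055, plus strand): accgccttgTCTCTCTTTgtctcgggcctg
Rps27 (chr3:90213634-90213663, minus strand): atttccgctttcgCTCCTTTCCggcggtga
Rps2 (chr17:24720048-24720077, plus strand): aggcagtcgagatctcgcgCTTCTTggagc
Rpl3l (chr17:24727811-24727840, plus strand): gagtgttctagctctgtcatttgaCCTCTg
Rpl10 (chrX:74270801-74270830, plus strand): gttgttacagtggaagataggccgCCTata
Rplp0 (chr5:115559452-115559481, plus strand): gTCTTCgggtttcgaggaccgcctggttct
Rpl28 (chr7:4792950-4792979, plus strand): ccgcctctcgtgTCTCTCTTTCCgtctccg
Rps26 (chr10:128626492-128626521, minus strand): gtcgggcaagccgccggaTCCTCTTTCgag
Rpl38 (chr11:114668565-114668594, plus strand): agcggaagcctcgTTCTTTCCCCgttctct
Of these windows, those of Rps12, Rps2, Rplp0, Rpl3l and Rpl10 hold only shorter runs, of 7, 6, 5, 5 and 3 bases. A run of at least 8 consecutive bases that are C or T, on the sense strand of this window, was found in 25 of the 66 members with a RefSeq entry (37.9%). The same search found it for 9 of 69 mitochondrial RP genes (13.0%) and for 3205 of all 27025 genes with an entry (11.9%). The median longest run was 6 bases in the members, 5 in mitochondrial RP genes and 4 in all genes. A match describes these letters only, since the start used in these cells was not measured.

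Cells were assigned to types by the percentage of their UMIs on marker genes, counted outside mitochondrial and RP genes, so the RP genes had no part in the assignment. Of 9965 Ctrl and 6718 cKO cells kept, 7095 and 4514 fell in exactly 1 of 15 marker gates, and 8 gates with at least 50 cells in each library were compared. These were stem and multipotent progenitors (HSC/MPP), megakaryocyte-erythroid progenitors (MEP), neutrophil progenitors (ProNeu), dividing neutrophil precursors (PreNeu), immature neutrophils (imNeu), cells carrying both secondary granule and late markers (imNeu/mNeu), mature neutrophils (mNeu) and monocytes. Median depth was 4111 UMIs per cell in Ctrl and 6244 in cKO. The 2 libraries had 3010 barcode names in common, 29.5% of the Ctrl and 43.8% of the cKO barcodes. The median correlation between the 2 profiles under 1 name was 0.419, and that between other pairs was 0.422. Over all kept cells, Map4k4 itself stood at 72.6 CPM (counts scaled to 1000000 UMIs) in Ctrl and 64.3 in cKO, a log2 ratio of -0.17 (-0.23 to -0.12). The make-up of these cells differed between the libraries. Whether the 3′ tags lie in the deleted part is not given in the sources used here. By RT-PCR, the study reported loss of the Map4k4 transcript in stem and progenitor cells after poly I:C.

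RP messages took a large part of all UMIs in progenitors and a few percent in mature neutrophils, and the order of cell types was much the same in both libraries. In Ctrl the RP share was 26.0% of UMIs in ProNeu, 25.1% in MEP and 23.7% in HSC/MPP. It was 17.8% in monocytes, 7.02% in PreNeu, 5.06% in imNeu, 3.68% in mNeu and 3.21% in imNeu/mNeu. The widest step lay between ProNeu, which carry primary granule RNA, and PreNeu, which carry secondary granule RNA. In cKO the share was 29.2% in HSC/MPP, 29.1% in ProNeu, 28.7% in MEP and 20.1% in monocytes. It was 8.0% in PreNeu, 4.93% in imNeu, 3.02% in imNeu/mNeu and 2.92% in mNeu. The highest gate stood 8.10-fold above the lowest in Ctrl and 9.99-fold in cKO. Neighbouring gates among HSC/MPP, MEP and ProNeu overlapped in the middle 50% of their cells in both libraries, while the monocytes did not overlap the next gate above or below them in the order. From PreNeu to mNeu, neighbouring gates overlapped again. In cKO the counting intervals of HSC/MPP and ProNeu also overlapped.

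From ProNeu through PreNeu and imNeu to mNeu, RP UMIs per cell were lower along with the RP share. A ProNeu cell held a mean of 4393 RP UMIs in Ctrl and 5291 in cKO, whereas an mNeu cell held 105 and 197. HSC/MPP cells held 2138 and 3162. In the gates with under 50 cKO cells, share and amount parted, with 412 RP UMIs per B cell and 671 per plasma cell in Ctrl. In Ctrl, T and NK cells had 22.7% of UMIs on RP genes, ProB cells 18.2%, B cells 17.8%, plasmacytoid dendritic cells 14.0%, macrophages 12.6%, haemoglobin-rich erythroblasts 9.82% and plasma cells 6.98%. Erythroblasts and plasma cells, which make haemoglobin and antibody in bulk, had the lowest shares of these. Both subunits took part. In Ctrl the large-subunit genes held 14.3% of UMIs in ProNeu and 1.98% in mNeu, and the small-subunit genes 11.6% and 1.70%.

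**Figure D1:**
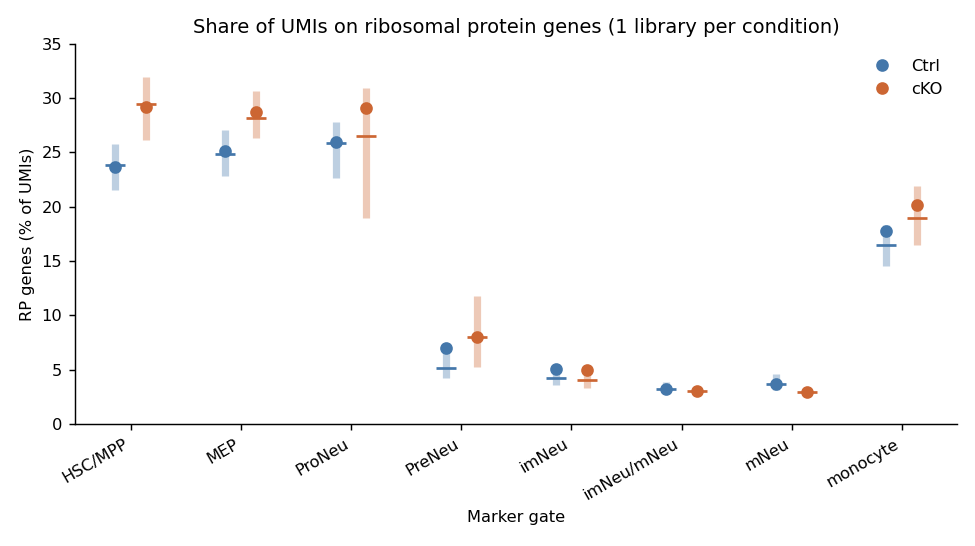
Percentage of UMIs on the 86 RP genes (vertical axis) in 8 marker gates (horizontal axis) for the Ctrl and the cKO library. Circles are the summed share, short lines the median cell and pale bars the middle 50% of cells, and ProNeu reached 26.0% in Ctrl against 3.68% in mNeu.

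The RP genes did not keep the same proportions from gate to gate: in late neutrophils Rps9 took first place among them. Each member was expressed as a percentage of the RP UMIs of its gate, which leaves aside how large the whole RP share was, and 1 tag per molecule was counted, so length does not enter. Rps9, a small-subunit protein at the channel where mRNA enters, was 1.23% of RP UMIs in ProNeu of Ctrl and 1.22% in cKO, place 41 of the 86 in both. In mNeu it was 4.66% (4.55 to 4.77) in Ctrl and 6.70% (6.60 to 6.80) in cKO, place 1 in both. The gates between were graded, with 2.11% and 2.39% in PreNeu, 3.03% and 3.82% in imNeu, and 4.08% and 5.93% in imNeu/mNeu for Ctrl and cKO. In monocytes, which do not become neutrophils, Rps9 was 1.82% and 1.94%. In CPM, Rps9 was 3181 in ProNeu and 1716 in mNeu of Ctrl, so its own level was also lower in mNeu. The summed RP share was lower there by a wider margin.

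Other members shared this shape or its opposite. Rps27a, whose product is made as a fusion of ubiquitin to a ribosomal protein, went from 1.93% of RP UMIs in ProNeu to 3.61% in mNeu in Ctrl and from 1.90% to 4.37% in cKO. Rps27 went from 0.913% to 2.61% in Ctrl and from 0.879% to 2.55% in cKO. Rpl37, a small zinc-binding protein of the large subunit, went from 1.26% to 2.73% and from 1.19% to 2.67%. All of these thus took a larger part of the RP UMIs in mNeu. Rps2, which neighbours Rps9 at the mRNA entry, was on the other side, with its highest part in MEP (1.76% in Ctrl and 1.98% in cKO) and its lowest in imNeu/mNeu (0.423% and 0.340%). Rpl3, close to the peptidyl transferase centre, was 0.841% in ProNeu and 0.446% in mNeu of Ctrl, and 0.778% and 0.180% in cKO. Rpl12, Rpl14 and Rps18 were likewise highest in MEP, with folds from highest to lowest gate of 2.54, 2.30 and 2.27 in Ctrl and 3.44, 3.81 and 3.10 in cKO.

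Over the members with UMIs in every gate, 16 of 84 spanned at least 2-fold between their highest and lowest gate in both libraries, with no UMI minimum beyond 1. Of the 16, 6 had fewer than 20 UMIs in at least 1 Ctrl gate (Rpl3l, Rps19bp1, Rps27rt, Rpl7l1, Rpl22l1 and Rpl36al), named after their values were seen. For Rps27rt and Rpl7l1 the gate with fewest UMIs was not the Ctrl gate of lowest percentage. That was ProNeu for Rps27rt and HSC/MPP, with 196 UMIs, for Rpl7l1. The median of the smaller fold was 1.47. The remainder kept closer proportions. For mNeu against ProNeu, 76 of 84 members lay on the same side in both libraries, 47 with a smaller and 29 with a larger part of the RP UMIs in mNeu. Both libraries were gated by the same markers and share the order of cell types, so this is a description of 2 readings.

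**Figure D2:**
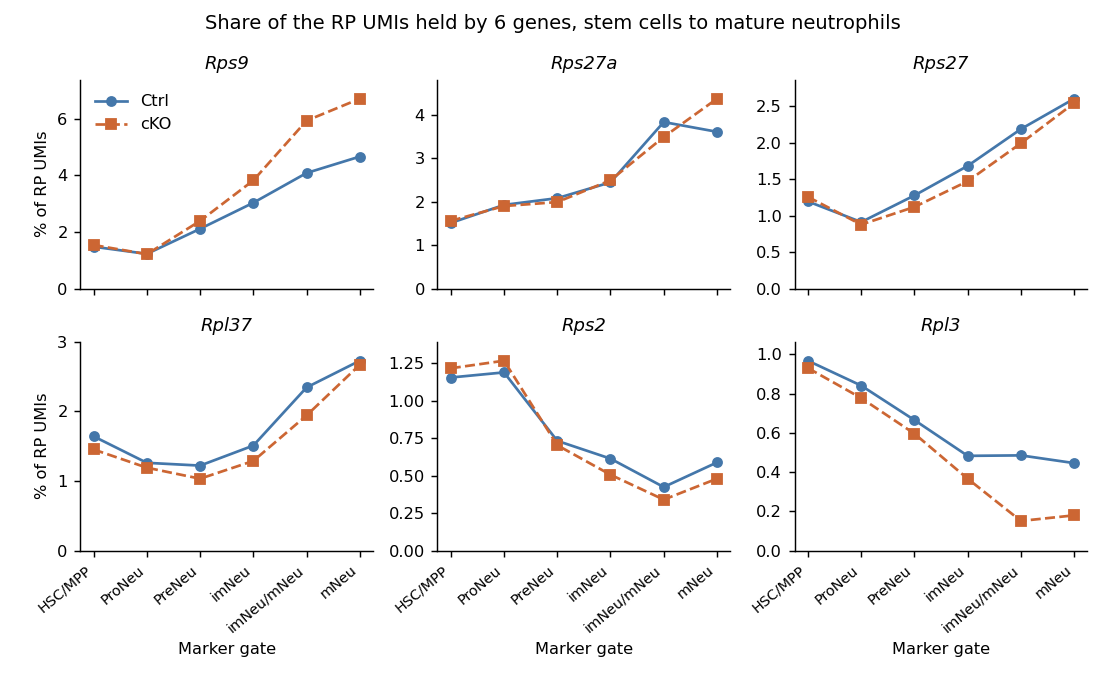
Percentage of all RP UMIs held by Rps9, Rps27a, Rps27, Rpl37, Rps2 and Rpl3 (vertical axes, each from 0) in 6 gates ordered from HSC/MPP to mNeu (horizontal axes), circles and solid lines for Ctrl and squares and dashed lines for cKO. Rps9 reached 4.66% in Ctrl and 6.70% in cKO in mNeu, and Rpl3 went the other way to 0.446% and 0.180%.

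Cells of equal depth gave the same picture for Rps9 above 2000 UMIs. In mNeu cells of 2000 to 5000 UMIs it was 4.82% of RP UMIs in Ctrl (846 cells) and 6.66% in cKO (371 cells), and in those of 5000 to 10000 UMIs 4.58% and 6.91%. In imNeu cells of 5000 to 10000 UMIs it was 3.31% and 4.45%. Below 2000 UMIs the order of the libraries turned, with 4.30% in Ctrl and 3.46% in cKO in mNeu and 3.47% and 2.38% in imNeu. In ProNeu the 5 depth bins lay between 1.21% and 1.42% in both libraries. Rpl3 was lower in cKO in all 3 mNeu bins that both libraries filled, at 0.544% of RP UMIs in Ctrl against 0.412%, 0.419% against 0.196%, and 0.410% against 0.173% from shallow to deep. The shallowest cKO bin rests on 61 cells and 15 Rpl3 UMIs.

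Most paralogues of ribosomal proteins were scarce, and Rpl3l had its highest levels in late neutrophils. Rpl3l, known as the muscle form of Rpl3 (chr17:24727820-24736143, plus strand), had 139 UMIs in Ctrl and 277 in cKO. Its level was 0.825 CPM in ProNeu, 2.89 in imNeu and 9.11 in mNeu of Ctrl, and 1.59, 5.69 and 13.6 CPM in cKO. In T and NK cells, macrophages, erythroblasts and plasma cells it had 0 UMIs in both libraries, where a count of 0 allows up to 3. Other gates held some of it, with 7 UMIs in ProB cells of Ctrl (5.51 CPM, above the level in imNeu) and 6 and 17 in monocytes. Of all its UMIs, mNeu held 38 of 139 in Ctrl and 114 of 277 in cKO. The parent Rpl3 ran the other way, from 2183 CPM in ProNeu to 164 in mNeu of Ctrl. Rpl10l, a testis form, had 0 UMIs in both libraries, and Rpl39l had 14 in Ctrl and 1 in cKO. Rpl22l1, a paralogue of Rpl22, was 860 CPM in ProNeu and 58.3 in mNeu of Ctrl, and 894 and 25.5 in cKO. Rps27l, known as a p53 target, was 565 and 62.4 CPM in Ctrl and 612 and 30.4 in cKO, and Rpl36al was 1105 and 91.4 in Ctrl and 1237 and 35.1 in cKO. Neither took the larger part in late neutrophils that Rps27 did. Rpl7l1, an assembly factor related to Rpl7, was 114 and 28.5 CPM in Ctrl and 107 and 23.0 in cKO. Rps27rt, a retrotransposed copy of Rps27, took 0.0188% of RP UMIs in ProNeu and 0.0768% in mNeu of Ctrl, the direction of Rps27, and reads of the copy and its parent may be split between them.

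Against Ctrl, the cKO library had a higher RP share in the progenitors, PreNeu and monocytes and a lower one in imNeu to mNeu. The log2 ratio of the share, cKO over Ctrl, was 0.31 in HSC/MPP (0.30 to 0.31), 0.19 in MEP, 0.17 in ProNeu, 0.19 in PreNeu and 0.18 in monocytes. It was -0.035 in imNeu (-0.041 to -0.029), -0.09 in imNeu/mNeu and -0.33 in mNeu (-0.34 to -0.32). So 5 of the 8 gates were higher in cKO. The HSC/MPP gate held 263 cells in Ctrl and 73 in cKO. The middle 50% of them ran from 21.5% to 25.8% in Ctrl and from 26.1% to 31.9% in cKO and did not overlap. In ProNeu it ran from 22.6% to 27.8% and from 19.0% to 30.9%, and the mean of the per-cell percentages gave a log2 ratio of 0.0068 there. The imNeu value turned to 0.058 with the gate limits doubled and to 0.033 without the barcode names in common.

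A share is set against all other genes, and over all genes with at least 50 UMIs the median log2 ratio was itself below 0, from -0.10 in HSC/MPP to -0.40 in mNeu. Taken relative to that median, the summed RP share was higher in cKO in all 8 gates. In mNeu that did not hold for the members one by one, of which 40 lay above the median of all genes and 44 below. The relative value was 0.40 in HSC/MPP, 0.35 in MEP, 0.45 in ProNeu, 0.52 in PreNeu, 0.36 in imNeu, 0.17 in imNeu/mNeu, 0.068 in mNeu and 0.38 in monocytes. The direction in imNeu, imNeu/mNeu and mNeu thus turned with the scaling. Over whole libraries the RP share was 16.8% in Ctrl and 14.8% in cKO. Their make-up also differed, with ProNeu at 9.34% of kept cells in Ctrl and 12.3% in cKO, mNeu at 14.7% and 18.5%, and MEP at 4.44% and 1.62%.

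The libraries also differed in UMIs per cell, which were 1.07-fold higher in cKO in ProNeu, 2.09-fold in imNeu and 2.38-fold in mNeu. In HSC/MPP the means were 9038 and 10819 UMIs per cell. Within the bins of equal depth that both libraries filled, the HSC/MPP difference stayed. The log2 ratio was 0.33 in cells of 5000 to 10000 UMIs (107 Ctrl and 30 cKO cells). It was 0.31 in those of 10000 to 20000 (80 and 25 cells). In ProNeu 4 of 5 bins were higher in cKO, from 0.10 to 0.15, and the shallowest was -0.24. In PreNeu the bins ran from 0.96 at 2000 to 5000 UMIs to -0.36 above 20000, and the pooled 0.19 became 0.46 in cells of 2000 to 10000 UMIs and 0.44 by per-cell means. In monocytes 2 of 4 bins were lower in cKO, with -0.039, 0.30, 0.077 and -0.071 from shallow to deep. The sign in these gates thus varied with depth. In mNeu the bins gave 0.063, -0.14 and -0.093 from shallow to deep, all closer to 0 than the pooled -0.33. In imNeu they ran from 0.39 to -0.77. RP share moved with depth inside a library too, since in mNeu of Ctrl it was 4.64% below 2000 UMIs, 3.56% from 2000 to 5000 and 3.12% from 5000 to 10000.

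**Figure D3:**
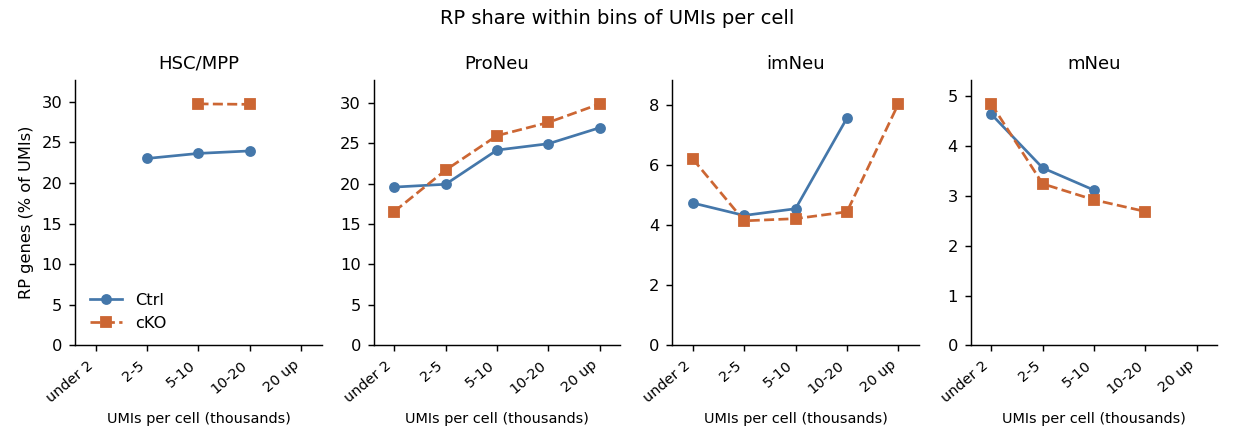
Percentage of UMIs on RP genes (vertical axes, each from 0) within bins of UMIs per cell (horizontal axes, from under 2000 to 20000 and up) for HSC/MPP, ProNeu, imNeu and mNeu, circles and solid lines for Ctrl and squares and dashed lines for cKO, in bins of at least 20 cells. In HSC/MPP cKO stood above Ctrl in both bins that the libraries share, while in mNeu the lines crossed.

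Markers of other cells moved with the library as well. In mNeu the primary granule genes Mpo, Elane, Prtn3, Ctsg and Ms4a3, which mature neutrophils no longer make, held 0.125% in Ctrl and 0.0569% in cKO. These and the other marker percentages here were counted over UMIs outside mitochondrial and RP genes. Haemoglobin and other erythroblast genes held 0.0586% and 0.00546%, and cell cycle genes 0.0234% and 0.00661%. The mNeu markers themselves held 4.82% and 5.09%. In HSC/MPP the secondary granule genes held 0.528% and 0.290%, and the nuclear RNA Malat1 held 0.808% and 0.340% of all UMIs, in Ctrl and cKO. The mNeu markers went the other way there, at 0.0562% and 0.107%. Cell cycle genes held 0.236% in Ctrl and 0.125% in cKO in HSC/MPP. The HSC/MPP markers, which set this gate by a lower limit of 0.2% in both libraries, were at 0.339% and 0.336%. The part of free RNA, depth and RNA quality in the RP ratios was not tested beyond the depth bins.

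Gene by gene, nearly every RP gene leaned the same way as the total in the progenitor gates. In HSC/MPP 82 of 83 members with at least 50 UMIs had a ratio above 0 (98.8%), where 41.3% of all 7568 genes did. In ProNeu it was 77 of 83 against 24.6% of all genes, in MEP 71 of 83 against 36.6%, in PreNeu 70 of 83 against 19.3%, and in monocytes 70 of 83 against 32.8%. Few of these differences were large. By 1.5-fold or more, 4 members were higher in HSC/MPP (5.93% of all genes), 3 in MEP (4.26%), 1 in monocytes (3.35%), and 0 in ProNeu (1.11%) and PreNeu (1.17%), shares near or under those of all genes. They included Rps19bp1, Rpl15 and Rps3 in HSC/MPP, Rpl29, Rpl10 and Rpl15 in MEP, and Rpl10 in monocytes. Lower by 1.5-fold in these 5 gates were 0 members, against 13.9% of all genes in HSC/MPP, 17.4% in MEP, 19% in ProNeu, 22.6% in PreNeu and 17.4% in monocytes. Median ratios of the members were 0.31 in HSC/MPP, 0.22 in MEP, 0.16 in ProNeu, 0.17 in PreNeu and 0.17 in monocytes. In these progenitors large- and small-subunit genes hardly parted, with medians of 0.29 and 0.33 in HSC/MPP and 0.18 and 0.15 in ProNeu.

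In late neutrophils the members spread out. In imNeu 32 of 84 members were above 0 (15.1% of all genes) with a median of -0.070. There Rpl3l was higher by 1.5-fold (1.74% of all genes), and Rps19bp1 and Rpl22l1 were lower (32.1%). In imNeu/mNeu 30 of 78 members were above 0 (30% of all genes), with Rplp0 higher by 1.5-fold (5.47%) and 10 members lower (25.7%). In mNeu 8 of 84 were above 0, where 17.5% of all genes were, and 28 were lower by at least 1.5-fold, 33.3% of members against 32.1% of all genes, and 0 were higher by that fold (2.69% of all genes). The median there was -0.42 for members and -0.40 for all genes, so the RP genes as a list lay where other genes lay. With median-of-ratios scaling, which puts the median gene at 0, 40 members were higher in mNeu and 6 lower by 1.5-fold. The share of all genes lower by 1.5-fold was not counted on that scale. Leaving out the paralogues, members ranged from -1.64 for Rpl3 to 0.22 for Rpl10. Large-subunit genes stood somewhat below small-subunit genes in mNeu, with medians of -0.44 and -0.40. The log2 ratios of their summed shares were -0.39 (-0.41 to -0.38) and -0.26 (-0.28 to -0.25) there, and -0.068 and 0.0034 in imNeu.

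**Figure D4:**
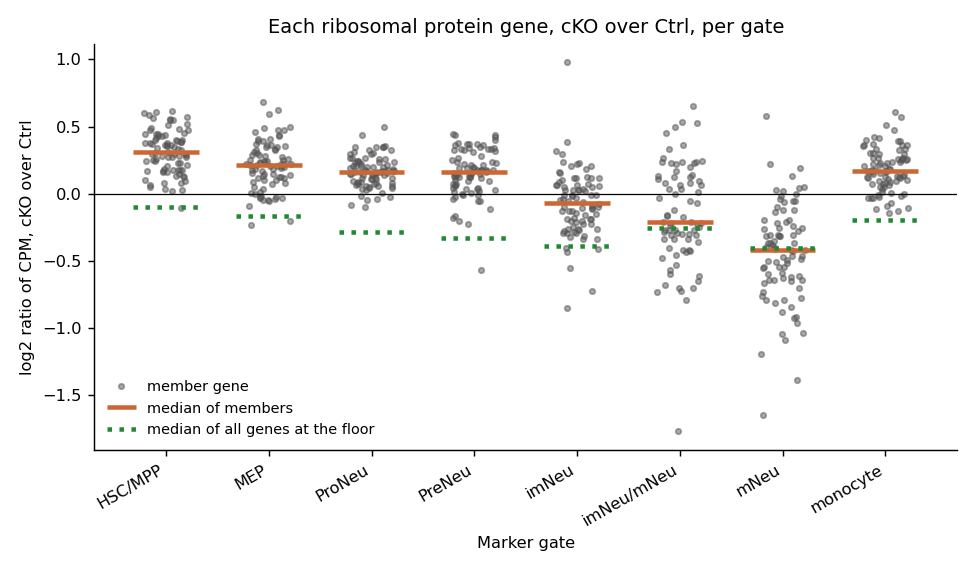
log2 ratio of CPM, cKO over Ctrl (vertical axis), for each RP gene with at least 50 UMIs (grey points) in 8 marker gates (horizontal axis), with the median of these members (solid line) and of all genes (dotted line). Members lay above the median of all genes in the progenitor gates, and in mNeu both medians met near -0.4.

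The members with the highest median ratio over the 8 gates included Rpl29 (0.51), Rpl10 (0.48), Rplp0 (0.41) and, a little lower, Rpl28 (0.36). Rpl10, which joins the large subunit late in its assembly, stood at 1963 CPM in HSC/MPP of Ctrl and 2873 in cKO, at 2810 and 3800 in ProNeu, and at 254 and 296 in mNeu. Its log2 ratio was 0.55 in HSC/MPP (0.48 to 0.62), 0.44 in ProNeu (0.42 to 0.45) and 0.22 in mNeu (0.12 to 0.33). Rplp0, the base of the ribosomal stalk that recruits elongation factors, was 2635 and 3891 CPM in HSC/MPP, 3626 and 4353 in ProNeu, and 489 and 537 in mNeu. Its partner at the stalk, Rplp1, was 5179 and 6126, 6006 and 6742, and 716 and 414 CPM in the same gates, higher in cKO in the first pair of gates and lower in mNeu. Rpl29 was 1215 and 1780 CPM in HSC/MPP, 1553 and 2189 in ProNeu, and 204 and 211 in mNeu. Rpl28 was 2787 and 3867 CPM in HSC/MPP and 446 and 361 in mNeu, and so turned below Ctrl in mNeu. In all, 6 members were above 0 in every gate, among them Rpl29, Rpl10, Rplp0, Rps9 and Rpl17, which were named for this count after their values were seen. No such count was made over all genes.

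At the other end were Rps26 (-0.16), Rpl38 (-0.10), Rpl37a (-0.09), Rpl37 (-0.08) and Rps21 (-0.05), mostly small proteins. Rps26, which sits at the mRNA exit of the small subunit, was lower in cKO in all 8 gates. It was 3372 CPM in HSC/MPP of Ctrl and 3140 in cKO, 3921 and 3822 in ProNeu, and 390 and 218 in mNeu, with log2 ratios of -0.10 (-0.17 to -0.04), -0.04 (-0.05 to -0.02) and -0.84 (-0.94 to -0.75). Relative to the median of all genes, Rps26 lay below it in HSC/MPP, MEP, imNeu/mNeu and mNeu and above it in ProNeu, PreNeu, imNeu and monocytes, so its direction turned there with the scaling. Rpl38 was 3263 and 3335 CPM in HSC/MPP, 3405 and 3556 in ProNeu, and 595 and 349 in mNeu. Rpl37a was 3460 and 3674 CPM in ProNeu and 826 and 540 in mNeu, and Rps21 was 3549 and 3699, and 564 and 386. These members were close to level in the progenitors and lower in mNeu. Counted over gates, 37 of the 78 members measured in all 8 were above 0 in at least 6 and 5 were below 0 in at least 6. With median-of-ratios scaling, 74 were above 0 in at least 6. That scaling subtracts a median below 0 in every gate, so it can only raise this count. The same counts over all genes were not made. In single gates, from 15.1% (imNeu) to 41.3% (HSC/MPP) of all genes were above 0 before that scaling.

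Among the most abundant members were Rps12, Rplp1, Rps29 and Rps24, with 538926, 480276, 475521 and 442740 UMIs over both libraries. Rps12, a small-subunit protein, was 7100 CPM in ProNeu of Ctrl and 7853 in cKO, and 819 and 685 in mNeu. In ProNeu it was the RP gene with most UMIs in both libraries. Rps24 was 5438 and 5133 CPM in ProNeu and 790 and 807 in mNeu, with ratios of -0.083 and 0.031. Rps29 was 5444 and 6083 CPM in ProNeu and 965 and 682 in mNeu.

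The 9 RP genes of the Diamond-Blackfan list, which include Rps19, Rps24, Rps26, Rpl5 and Rpl11, were mostly above 0 in the progenitors, and no test compares them with the other members. In HSC/MPP 8 of 9 were above 0 with a median of 0.28 (41.3% of all genes), in MEP 7 of 9 with 0.21 (36.6%), in ProNeu 6 of 9 with 0.14 (24.6%) and in PreNeu 7 of 9 with 0.070 (19.3%). In monocytes it was 5 of 9 with 0.20 (32.8%) and in mNeu 1 of 9 with -0.54 (17.5%). Of all members, 92.8% were above 0 in ProNeu and 84.3% in monocytes. Rps19, the gene most often mutated in the disease, was 4341 CPM in HSC/MPP of Ctrl and 5728 in cKO, 3916 and 4562 in MEP, and 358 and 238 in mNeu. Rpl11 and Rpl5, which together bind MDM2 and so restrain p53 breakdown when assembly fails, parted in MEP with ratios of 0.33 and 0.10. In mNeu they were -0.50 and -0.81.

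In mNeu, Rpl3 had the lowest ratio of all members and Rps9 one of the highest, so these members lay further apart in cKO than in Ctrl. Rpl3 was 164 CPM in Ctrl (685 UMIs) and 52.6 in cKO (441 UMIs), a log2 ratio of -1.64 (-1.82 to -1.47), and in imNeu/mNeu it was 156 and 45.7 CPM. Rpl36al (-1.38), Rpl22l1 (-1.19), Rpl10a (-1.08), Rpl36a (-1.04) and Rps27l (-1.04) followed. Rps9 was 1716 CPM in Ctrl (7154 UMIs) and 1959 in cKO (16431 UMIs), a ratio of 0.19 (0.15 to 0.23). Rps27a was 1329 and 1278 CPM. Rps29 and Rpl37, which also held over 2% of RP UMIs in mNeu, had ratios of -0.50 and -0.36.

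Ribosomal proteins whose symbols the rule does not catch gave similar values. Fau, made as a ubiquitin-like fusion with RPS30, was 3647 CPM in ProNeu of Ctrl and 4146 in cKO, and 2268 and 2137 in mNeu, above every member in mNeu of both libraries. Rack1, a scaffold on the small subunit head, was 2211 and 2598 CPM in ProNeu and 231 and 151 in mNeu.

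Other genes of translation did not all go with the RP genes, and those of ribosome biogenesis stood below them in every gate. In imNeu/mNeu only 3 of the 25 biogenesis genes reached the UMI minimum. The mitochondrial RP genes, which serve the separate ribosome of mitochondria, held 0.640% of UMIs in ProNeu of Ctrl and 0.711% in cKO, and 0.195% and 0.163% in mNeu. Their median ratio was 0.39 in MEP, above the 0.22 of the cytosolic members, and 0.11 in HSC/MPP, below 0.31. Of the 78, 73 were above 0 in MEP and 14 higher by 1.5-fold, where 4.26% of all genes were. Among 17 translation factors and other TOP genes the median was 0.24 in HSC/MPP, 0.11 in ProNeu and -0.47 in mNeu. Their summed share, however, was higher in cKO in all 8 gates. Its log2 ratio was 0.22 in HSC/MPP, 0.074 in ProNeu and 0.066 in mNeu (0.037 to 0.094). In mNeu the median and the summed share thus had opposite signs. Tpt1, a TOP message with one of the best known tracts, was above 0 in all 8 gates, at 0.52 in HSC/MPP and 0.74 in mNeu. Npm1, a nucleolar chaperone on the same list, was -0.25 and -1.55. In mNeu Tpt1 went from 957 CPM in Ctrl to 1595 in cKO, while the whole list went from 0.343% to 0.359% of UMIs. There and in imNeu and imNeu/mNeu, Tpt1 alone gained more of the UMIs than the whole list did. The higher summed share of the list in these late gates thus rested on Tpt1.

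The 25 ribosome biogenesis genes, which include the nucleolar proteins Ncl, Fbl, Nop56 and Nop58 and subunits of RNA polymerase I, held 0.531% of UMIs in HSC/MPP of Ctrl and 0.416% in cKO. They held 0.417% and 0.333% in ProNeu, and 0.0560% and 0.0242% in mNeu. The log2 ratio of their share was -0.35 in HSC/MPP, -0.096 in MEP, -0.33 in ProNeu, -0.71 in PreNeu and -1.21 in mNeu, against 0.31, 0.19, 0.17, 0.19 and -0.33 for the RP genes. Relative to the median of all genes, their median was -0.051 in HSC/MPP, 0.12 in MEP, -0.014 in ProNeu and -0.97 in mNeu. In ProNeu Ncl was -0.61, Nop58 -0.57, Nop56 -0.39 and Fbl -0.094, while Nhp2 (0.24) and Nop10 (0.27), small proteins of the box H/ACA particle, were above 0. Of the 25, 4 were above 0 in ProNeu (16%, against 24.6% of all genes), and in mNeu 0 of the 17 at the UMI minimum were, where 17.5% of all genes were. These are counts of 1 library against 1, with no test and so no p.

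**Figure D5:**
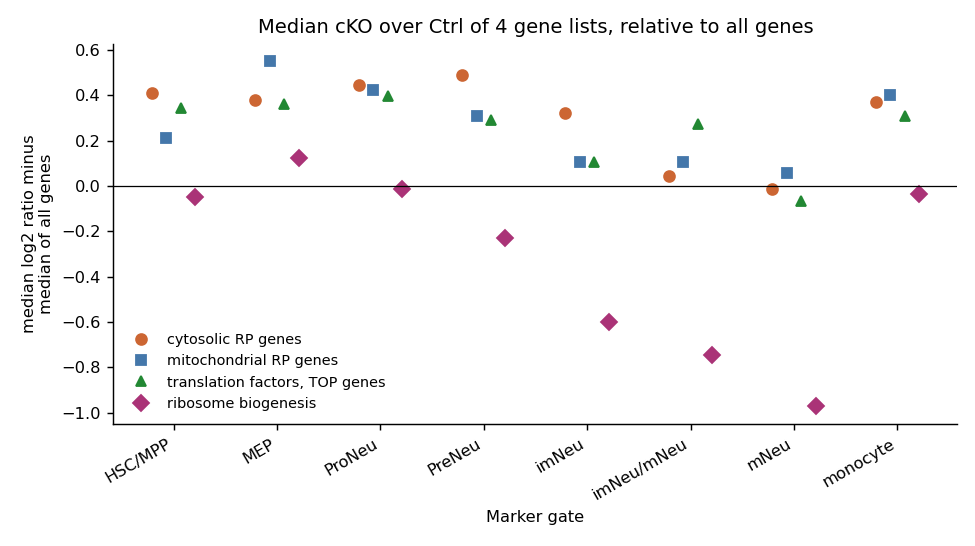
Median log2 ratio, cKO over Ctrl, of 4 gene lists minus the median of all genes (vertical axis) in 8 marker gates (horizontal axis). The cytosolic RP genes lay between -0.015 in mNeu and 0.49 in PreNeu, and the ribosome biogenesis genes were lowest in all 8 gates. The biogenesis value in imNeu/mNeu rests on 3 of the 25 genes.

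Of the members, 23 overlap another annotated gene, 22 of them on the opposite strand, and many have near-identical processed copies, so single-gene values can hold reads of a neighbour or copy. The 5 features marked as pseudogenes held between 0.0310% and 0.0821% as many UMIs as the RP genes in every gate and library. Rpl31 lies on chromosome 1, 529001 bases from Map4k4, and its ratios (0.27 in HSC/MPP, 0.045 in ProNeu and -0.46 in mNeu) lay within the range of the other members.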

How the data were processed

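Single-cell 3′ libraries (BMKMANU DG1000) of 1 Ctrl and 1 cKO marrow were deposited by the authors as whole-number UMI counts per gene and barcode, unnormalized. Per the labels and methods, Cell Ranger 5.0.0 and mm10 were used. Totals were 71527701 UMIs on 10220 barcodes and 64393950 on 6872. Filters of 200 to 9000 detected genes and a ceiling of 30% on mitochondrial UMIs left 9965 and 6718 cells. No doublet caller was run here, but 194 and 111 cells that met several gates were left out, as were 2676 and 2093 that met none. Gates used 88 markers, at least 3 UMIs over 2 markers, and limits set after the distributions of marker percentages were seen. Counts were summed per gate and library and scaled to CPM of all UMIs, and genes with at least 50 UMIs over both libraries entered ratios. Called means past 1.5-fold. Intervals are exact binomial (Clopper-Pearson) at 95%. Scripts were tested on simulated counts. Python 3.11.15, numpy 2.4.6, scipy 1.17.1 and pandas 2.3.3 were used, and windows came from RefSeq on GRCm38.p6. All 86 member IDs were matched to GENCODE vM21 for positions.

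Members and lists were chosen with earlier results of these data known. Named genes were the 5 members with most UMIs, the paralogues with their parents, Rps19bp1, Fau and Rack1, the 5 highest and 5 lowest by median ratio, the 6 with the widest composition, the Diamond-Blackfan list and Map4k4. Some items that this rule gives are not reported here. Others were named after their values were seen. Alternatives were a floor of 1000 UMIs per cell, cells of 2000 to 10000 UMIs, a 10% mitochondrial ceiling, doubled gates, another denominator, per-cell means, RP genes without paralogues, median-of-ratios scaling and other UMI minimums. Leaving out barcode names in common was added after the data were seen.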

Additional observations from a re-analysis of the deposited data

Results flagged for a closer look

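The log2 ratio of the RP share, cKO over Ctrl, was 0.31 in HSC/MPP and -0.33 in mNeu, so the same contrast pointed opposite ways in 2 cell types. The difference was not tested, since each condition had 1 library. Relative to the median of all genes the values were 0.40 and 0.068, and within bins of equal depth they were 0.31 to 0.33 and -0.14 to 0.063. The HSC/MPP bins rest on 30 and 25 cKO cells.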

How the results depend on the processing

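No paired analysis was possible because each condition had 1 library, both with replicate number 1, so no replicate could be left out either. The fold of the highest over the lowest RP share was 6.74 in Ctrl and 7.95 in cKO in cells of 2000 to 10000 UMIs (5 gates). It was 7.82 and 10.5 with gates doubled (6 gates), and 9.87 in cKO without barcode names in common (6 gates). HSC/MPP dropped out at each of these settings, with 40, 20 and 25 cKO cells in turn. Its share ratio was thus not computed there. MEP dropped out in the UMI window and without barcode names in common, with 20 and 41 cKO cells. The imNeu/mNeu gate dropped out at all but the last setting, so these folds are not over the same 8 gates as before. Over the 8 gates, the fold was 7.56 and 9.91 with mitochondrial, haemoglobin, immunoglobulin and marker genes out of the denominator. By per-cell means it was 7.10 and 9.43. Cells of 2000 to 10000 UMIs filled 5 gates, of which 3 were higher in cKO. There, 21 members were above 0 in most of these gates (at least 75%; 37 before), 17 were lower by 1.5-fold in mNeu (28), 49 were higher in ProNeu (77) and 15 higher in mNeu (8). Gates doubled gave 13 higher in mNeu. Median-of-ratios scaling gave 74 members above 0 in most gates, 6 lower and 40 higher in mNeu, and 16 of 24 list medians above 0 for the other translation genes (9). Shares of all genes were not counted at these settings. Whether the member counts moved apart from those of other genes was thus not tested. The imNeu share ratio turned to 0.058 with gates doubled and 0.033 without barcode names in common. The count of members with a 2-fold span in composition ranged from 13 to 18. Gates rest on chosen limits, and in imNeu/mNeu, 45.2% of Ctrl and 39.4% of cKO cells lay at most 20% above one.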

Other observations

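Cells in no gate, 26.9% of Ctrl and 31.2% of cKO cells, had 18.2% and 15.6% of their UMIs on RP genes at median depths of 1708 and 936 UMIs. Barcodes with under 200 genes, outside the cells kept, had 4.44% and 3.96%, close to the share in imNeu and mNeu.

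Among gates with under 50 cKO cells, the RP share was 29.4% in 17 T and NK cells, 23.7% in 16 B cells and 17.8% in 9 plasmacytoid dendritic cells of cKO, against 22.7%, 17.8% and 14.0% in Ctrl. Macrophages (11.6% against 12.6%) and erythroblasts (7.44% against 9.82%) were lower in cKO.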
